A study of Mus musculus with 14 samples.

Results

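The epithelium of the bladder was compared with the epithelium of the urethra in wildtype CD-1 mouse embryos at embryonic day 14.5 (E14.5), a comparison that asks which genes set the compartments apart while the lower urinary tract forms. The genes compared were all those that passed a filter on low counts in the 4 bladder and 4 urethral libraries of that stage. They were 16697 of the 55228 genes in the table of that stage, and the 8 libraries were part of 14 in the study, which also holds both tissues at E18.5. All embryos were untreated females, so the groups shared genotype, strain, sex and stage, and tissue was the labelled difference between them. Per the labels, the dissected tract lay in 1% trypsin in the cold for 45 to 75 min, bladder and urethra were cut apart, and forceps lifted the epithelial sheet from the mesenchyme. The sheets of the females of a litter were pooled, so that each value is a mean over embryos and over every kind of cell left in the sheet. The study's design text gives 4 litters at this stage and its extraction notes give 3, and the 4 libraries of a tissue were taken as 4 litters here. RNA-seq counts were scaled to CPM (counts per M of the effective library size), and a list of 4 values below runs from replicate 1 to replicate 4.

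Bladder and urethral epithelium both arise from the endoderm of the urogenital sinus. In the bladder it becomes urothelium, whose surface cells carry plaques of uroplakin proteins that reach the apical membrane in fusiform vesicles, and whose maturation depends on the nuclear receptor PPAR gamma and on retinoic acid. In the urethra it becomes a stratified epithelium with several regional kinds, which gives rise to the prostatic buds in males and meets the nephric and Mullerian ducts where they join the sinus. Hedgehog, Wnt, BMP and FGF signals pass between this epithelium and the mesenchyme around it, and Hox genes set position along the tract.

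Library totals ran from 22.0 to 36.8 M counts, and 21966 to 23424 genes had at least 1 count in a library. The tissues lay apart on the first principal component (68.0% of the variance), with bladder at -98.4 to -24.2 and urethra at 25.8 to 87.1. Within bladder this component also ran with the summed mesenchyme markers given below, from replicate 2 (-98.4, 1123 CPM) to replicate 3 (-24.2, 4885 CPM). In urethra, replicate 1 was lowest in both (25.8, 2503 CPM). The parts of tissue and of mesenchymal RNA in that component were not tested. Urethra replicate 1 stood apart: it lay nearest the bladder on that component (25.8) and at 63.4 on the second (11.1% of the variance), where the other 7 libraries ran from -37.1 to 5.66. Results that rest on it are given with and without it, and without it 4391 genes were called higher in bladder and 4003 higher in urethra. The defining epithelial genes were present in every library, with Cdh1 (E-cadherin) at 1499 to 1725 CPM in bladder against 547 to 1426 CPM in urethra. Summed over 7 pan-epithelial genes, the level was 4110 to 4656 CPM in bladder and 3750, 2278, 1728 and 1915 CPM in the urethral libraries, so urethra replicate 1 lay nearest the bladder here too. All 5 uroplakin genes were higher in the libraries labelled bladder, by a median log2 fold change of 3.02, against 23.1% of all tested genes. Mesenchymal RNA was present as well: the summed level of 15 mesenchyme markers ran from 1123 to 4885 CPM in bladder and from 2503 to 7076 CPM in urethra, and 2 of them, Pdgfra and Pdgfrb, passed as higher in urethra. Pdgfra no longer passed without bladder replicate 4 and Pdgfrb without any one library except bladder replicate 3 and urethra replicate 1 (adjusted p = 0.0536 to 0.118). Of the other cell types, 0 of 10 endothelial, 0 of 12 immune and 0 of 10 erythroid markers passed by edgeR, and their summed levels overlapped between the tissues (medians -0.63, -1.13 and -0.70). Of 8 tested skeletal muscle markers 2 were higher in urethra, with summed levels of 7.96 to 32.1 CPM in bladder against 14.7 to 101 CPM in urethra, and of 10 smooth muscle markers 1. Of 14 neural and glial markers 2 passed on the urethral side and 1 on the bladder side, and of 9 mesothelial markers, some of which epithelium also expresses, 2 and 3. Among all tested genes 20.9% were higher in urethra. The urethral counts of these muscle, neural and mesothelial markers lay near or below that share. Of 10 gut epithelial markers 3 were tested (Cdh17, Lgals4 and Vil1), and these were higher in bladder. The others (Cdx2, Cdx1, Fabp1, Fabp2, Tff3, Spink1 and Isx) lay under 1 CPM in all 8 libraries. Summed levels of the 10 were 10.9 to 11.1 CPM in bladder against 2.06 to 3.11 CPM in urethra. Cdh17, at 0.168 to 0.796 CPM in urethra, passed the count filter through bladder. Of 13 tested nephric and Mullerian duct markers, 8 were higher in urethra and 1 in bladder (median -3.85), and 9 of 10 hepatocyte markers lay under 1 CPM in all 8 libraries. In pooled tissue such as this, fewer cells of a type and less RNA per cell cannot be told apart.

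At an adjusted p under 0.05, 7351 genes differed between the tissues, 44.0% of those tested. Of these, 3860 were higher in bladder (23.1%) and 3491 higher in urethra (20.9%). The counts were near each other, but the sizes were not. The median fold of the called genes was 1.59 in bladder and 2.24 in urethra, and at least 2-fold differences numbered 1112 in bladder (6.66%) and 1980 in urethra (11.9%). At 8-fold or more there were 124 bladder and 249 urethral genes, and at 32-fold or more 3 and 41. The bladder genes with a 2-fold difference were the more abundant, with a median level of 37.9 CPM in bladder, against 10.5 CPM in urethra for the urethral genes with such a difference. Complete separation of the 4 bladder from the 4 urethral values was seen for 3625 genes higher in bladder (21.7%) and 3113 higher in urethra (18.6%). Of the 234 genes named here and below, 147 were picked by a rule on size, level, rank or list, and the other 87 after their values were seen.

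**Figure D1:**
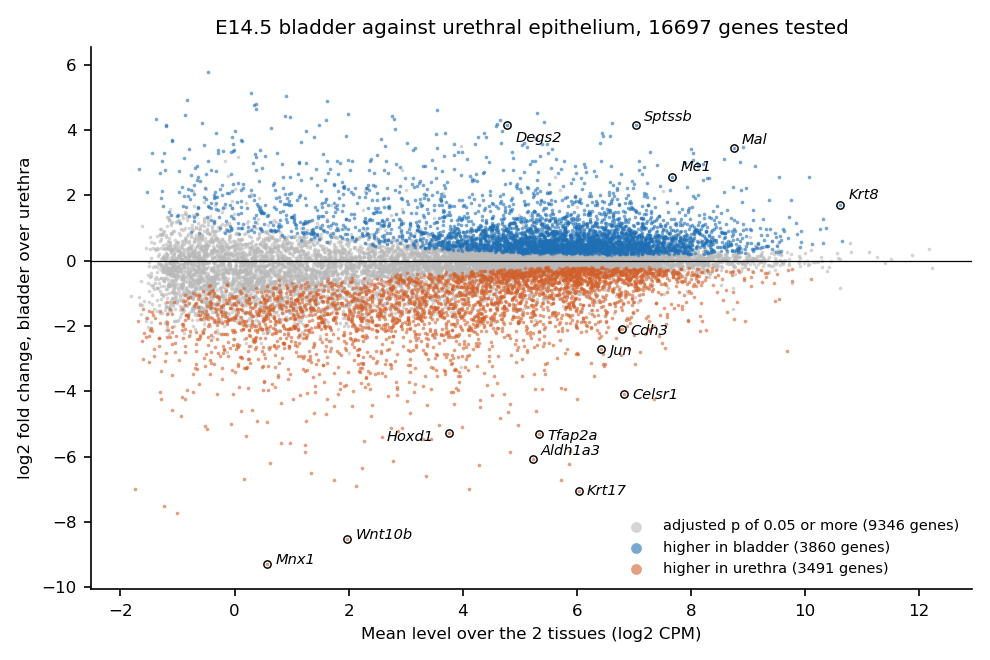
Each point is 1 of 16697 genes, with its mean level over both tissues on the horizontal axis (log2 CPM) and its fitted log2 fold change on the vertical axis, positive where the level was higher in bladder. Blue and orange points passed at an adjusted p under 0.05. The urethral side reached farther from 0, with 41 genes at 32-fold or more against 3 on the bladder side, and the values of Mnx1 and Wnt10b depend on the prior count because bladder held 0 and 2 counts of them.

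The split depended on how the libraries were scaled. With library totals alone, 39.3% of the calls were higher in bladder, against 52.5% here, and the median over all tested genes moved from -0.03 to -0.17 (log2). A scaling on 7 pan-epithelial genes, chosen after seeing the data, left 569 bladder and 11153 urethral calls and moved the median of all genes to -0.96, with 33 of the 234 genes named turned to the urethral side. Those 7 genes were themselves on the bladder side, with 5 higher there (Cdh1, Esrp2, Spint1, Spint2 and St14) and a median log2 fold change of 0.95. Cdh1 no longer passed without any one library except bladder replicate 1 and 3 and urethra replicate 1 and Esrp2 without any one library except bladder replicate 3 and urethra replicate 1 and 3 (adjusted p = 0.0522 to 0.0696), and with the mesenchyme score described below 2 of the 7 passed. A bladder list with a median near 0.95 lay no farther from 0 than these epithelial genes, and the value of 0.95 stands beside the lists below. A list median under the pan-epithelial scaling is to be set against the -0.96 of all genes. The ribosomal genes described below had a median of -0.89 there. With a score of the mesenchyme markers as a covariate in the fit, 2137 genes were higher in bladder and 1887 in urethra.

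**Figure D2:**
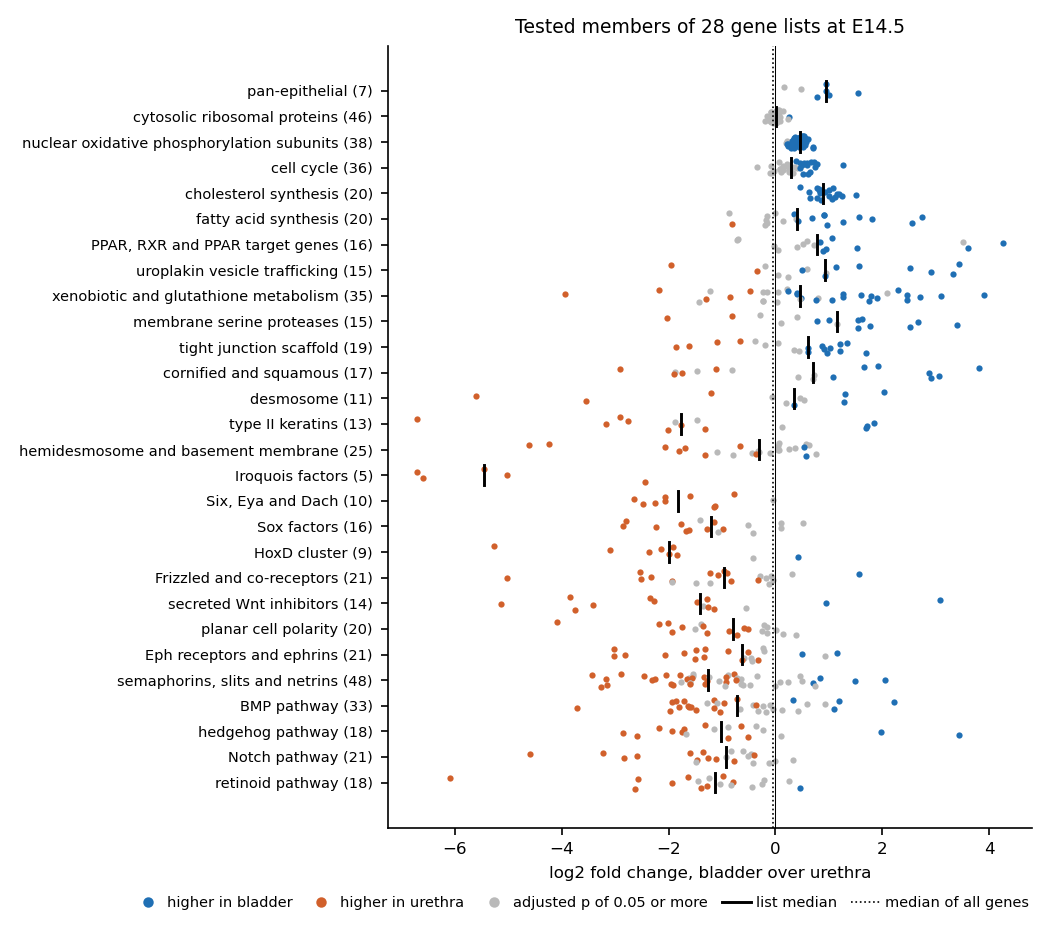
Each point is a tested member of 1 of 28 gene lists, placed by its log2 fold change (horizontal axis, positive where higher in bladder), with the number tested in brackets, the list median as a bar and the median of all genes as a dotted line. The 46 ribosomal genes lay around 0, the 38 oxidative phosphorylation genes between 0.20 and 0.71, and the 5 Iroquois factors between -6.71 and -2.45.

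Degs2 and Sptssb, which act in sphingolipid synthesis, were among the 15 largest bladder differences without overlap at 5 CPM or more, and Fa2h and Cers3 were set beside them after their values were seen. Degs2 (chromosome 12, 108678711 to 108702315, GRCm38 here and below), a desaturase and hydroxylase of ceramide, stood at 79.4, 48.8, 28.4 and 50.6 CPM in the bladder libraries and 7.39, 1.01, 2.85 and 0.488 CPM in the urethral libraries. Urethra replicate 1 was the highest of the urethral libraries and below every bladder library (17.8-fold, log2 fold change 4.15, SE 0.75, adjusted p = 0.00319). Sptssb, a small subunit of serine palmitoyltransferase, which opens sphingolipid synthesis, varied widely, at 498, 212, 77.6 and 199.9 CPM in the bladder libraries and 52.0, 1.05, 3.22 and 0.0813 CPM in the urethral libraries. Its groups did not overlap (17.6-fold, log2 fold change 4.14, SE 1.42, adjusted p = 0.0431), but Sptssb no longer passed without any one library except bladder replicate 3 and urethra replicate 1 (adjusted p = 0.0650 to 0.0923). Fa2h, which hydroxylates the fatty acid of sphingolipids, was 14.2-fold higher in bladder (128 to 199 CPM against 3.25 to 26.8 CPM, adjusted p = 0.00126). Cers3, a ceramide synthase for very long chains, was 3.05-fold higher (143 to 210.3 CPM against 42.2 to 104 CPM, adjusted p = 0.00331). Leaving out urethra replicate 1, the log2 fold changes of Degs2, Sptssb and Fa2h went to 5.17, 7.42 and 4.50.

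Other genes also had large bladder differences. Sele, the E-selectin gene known from activated endothelium, stood at 52.2, 48.1, 28.4 and 51.9 CPM in the bladder libraries and 6.99, 1.52, 1.67 and 0.325 CPM in the urethral libraries, with no overlap (17.3-fold, log2 fold change 4.11, SE 0.74, adjusted p = 0.00303). Of the 10 endothelial markers 0 passed by edgeR, and their summed level ran from 33.0 to 142 CPM in bladder and from 31.5 to 248 CPM in urethra. Dmgdh, a mitochondrial enzyme of choline breakdown, was 16.4-fold higher (5.09 to 28.2 CPM against 0.244 to 2.43 CPM, adjusted p = 0.00758). Slfn5, a Schlafen family gene, was 15.7-fold higher (31.1 to 64.6 CPM against 0.773 to 6.54 CPM, adjusted p = 0.00122). Vsig2, an immunoglobulin domain membrane protein, was 14.9-fold higher (11.3 to 89.2 CPM against 0.800 to 7.08 CPM, adjusted p = 0.00892). In each of the 4 the highest urethral library was replicate 1. Without it the log2 fold changes of Sele, Dmgdh, Slfn5 and Vsig2 went from 4.11, 4.04, 3.97 and 3.90 to 5.28, 5.57, 4.64 and 5.12. Without bladder replicate 1, the highest bladder library for Dmgdh and Vsig2, they were 3.35 and 3.06.

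The vesicle machinery that carries uroplakins to the apical membrane was partly on the bladder side. Of 15 tested trafficking genes, 8 were higher in bladder and 2 in urethra, and the list median was 0.93. Mal (chromosome 2, 127633226 to 127656695), a raft proteolipid that sorts cargo to the apical surface, stood at 940.5, 737, 729 and 739 CPM in the bladder libraries and 186, 38.1, 55.2 and 13.1 CPM in the urethral libraries. Bladder replicate 1 was the highest library, the other 3 bladder libraries lay within 10 CPM of each other, and urethra replicate 1 was the highest of the lower group (10.8-fold, log2 fold change 3.43, SE 0.71, adjusted p = 0.00571). Sytl2, an effector of Rab27 at the membrane, stood at 443, 279, 166 and 244 CPM in the bladder libraries and 69.3, 17.7, 19.8 and 6.67 CPM in the urethral libraries, without overlap (9.98-fold, adjusted p = 0.00544). Rab27b itself, the small GTPase of fusiform vesicles, was 5.76-fold higher and Snx31, a sorting nexin that binds uroplakins, 7.49-fold (adjusted p = 0.00158 and 0.0137). Members with roles in many cell types were higher by less: Myo5b, the motor of recycling vesicles (2.97-fold), Rab11a, the GTPase of recycling endosomes (2.19-fold), the vesicle SNARE gene Vamp8 (1.9-fold) and Rab8a, a GTPase of apical exocytosis (1.41-fold). The 2 urethral members were relatives of bladder ones. Rab8b stood at 45.1 to 54.0 CPM in bladder against 59.5 to 66.2 CPM in urethra (log2 fold change -0.34, adjusted p = 0.00899). The Mal relative Mall stood at 4.61, 6.62, 13.7 and 6.31 CPM in the bladder libraries and 74.5, 19.6, 8.37 and 17.7 CPM in the urethral libraries, where the groups overlapped (log2 fold change -1.95, adjusted p = 0.0421). Mall no longer passed without any one library except bladder replicate 3 and urethra replicate 3 (adjusted p = 0.0545 to 0.102), and Mall stood at -0.97 without urethra replicate 1. Leaving out that library moved Mal, Sytl2 and Snx31 from 3.43, 3.32 and 2.91 to 4.48, 4.27 and 4.21.

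PPAR receptors bind DNA as partners of RXR and switch on fatty acid handling genes. Of 16 tested receptor, partner and target genes, 7 were higher in bladder and 0 in urethra by edgeR. The median of 0.78 turned to -0.07 under the pan-epithelial scaling, where the median of all genes was -0.96. Besides Pparg (113 to 188 CPM in bladder, 3.90 to 22.6 CPM in urethra), Ppard, the family member active in most tissues, stood at 134, 113, 93.6 and 114 CPM in the bladder libraries and 55.5, 38.1, 34.6 and 30.5 CPM in the urethral libraries. All bladder values were above all urethral ones (2.87-fold, log2 fold change 1.52, SE 0.19, adjusted p = 0.000800). Rxra, their partner, was 1.93-fold higher (635 ± 69.9 CPM against 329 ± 118 CPM, SD, n = 4 each). Of the targets, Fabp5, which carries fatty acids to PPAR delta, was 1.78-fold higher (adjusted p = 0.00627). Ucp2, a mitochondrial uncoupling protein, was also among the 7. Ucp2 no longer passed without bladder replicate 1 or urethra replicate 2, 3 or 4 (adjusted p = 0.0523 to 0.0588). With the mesenchyme score as a covariate 4 of the 16 passed.

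Cholesterol is made from acetyl-CoA through mevalonate and squalene, and SREBP2, encoded by Srebf2, switches the enzymes on together when sterol is low. All 20 enzyme genes tested were higher in bladder, with log2 fold changes from 0.46 to 1.51 and a median of 0.90, near the 0.95 of the pan-epithelial genes. Under the pan-epithelial scaling 1 of the 20 passed as higher and the median was 0.02, where the median of all genes was -0.96. Each of the 20 also passed in every fit that left out 1 library. The list reaches from Hmgcs1 at the start of the mevalonate arm to Msmo1 and others that finish the sterol ring.

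The upstream sequence of 3 of these genes is shown because a script found the sterol element in Hmgcs1, Mvk had the smallest adjusted p of the list and Msmo1 the largest fold. Capitals mark matches to CCAAT on either strand (ATTGG on the printed strand), the site bound by NF-Y, and in Hmgcs1 also the match to the sterol element TCACNCCAC, which overlaps none of them. Each run holds the 250 bases before the start of the gene, on the strand of the gene, from RefSeq (GRCm38.p6), at chr13:119690101-119690350 (plus strand) for Hmgcs1, chr5:114444019-114444268 (plus) for Mvk and chr8:64733579-64733828 (minus) for Msmo1.
Hmgcs1: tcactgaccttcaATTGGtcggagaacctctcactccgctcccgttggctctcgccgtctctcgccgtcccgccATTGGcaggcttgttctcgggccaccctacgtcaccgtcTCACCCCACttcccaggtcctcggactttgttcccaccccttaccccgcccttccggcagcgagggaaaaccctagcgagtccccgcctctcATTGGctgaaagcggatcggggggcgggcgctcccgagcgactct
Mvk: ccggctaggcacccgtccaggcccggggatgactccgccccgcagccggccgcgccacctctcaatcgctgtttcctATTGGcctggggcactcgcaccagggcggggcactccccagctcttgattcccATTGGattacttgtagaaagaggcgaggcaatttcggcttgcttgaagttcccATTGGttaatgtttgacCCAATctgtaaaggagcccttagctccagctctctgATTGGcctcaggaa
Msmo1: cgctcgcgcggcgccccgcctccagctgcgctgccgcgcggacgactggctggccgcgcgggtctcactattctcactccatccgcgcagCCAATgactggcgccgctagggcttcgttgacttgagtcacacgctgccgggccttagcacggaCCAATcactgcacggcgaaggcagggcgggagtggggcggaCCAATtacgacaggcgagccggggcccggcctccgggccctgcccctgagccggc
CCAAT was found 3, 5 and 3 times in these windows. It was found in 14 of the 15 cholesterol genes with a sequence in the table (93.3%, all but Acat2), in 40.1% of 11609 tested genes with one, in 40.1% of those higher in bladder and in 40.2% of those higher in urethra. CCGCCC, an Sp1 type box, was in 14 of the 15 (93.3%) and in 63.2% of the tested genes. TCACNCCAC was in 1 of the 15 and in 1.21% of the tested genes. Such a match is a stretch of letters and not a measured binding site.

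Mvk, which phosphorylates mevalonate, stood at 74.8, 73.8, 78.2 and 69.8 CPM in the bladder libraries and 42.0, 35.5, 37.8 and 32.2 CPM in the urethral libraries. The bladder libraries lay within 9 CPM of each other and far above the urethral ones (2.01-fold, log2 fold change 1.01, SE 0.09, adjusted p = 0.000336). Hmgcs1, the cytosolic synthase that feeds the mevalonate arm, stood at 419, 444, 431 and 440.5 CPM in the bladder libraries and 271, 201, 235 and 205 CPM in the urethral libraries (1.9-fold, log2 fold change 0.93, SE 0.10, adjusted p = 0.000549). Msmo1, which removes methyl groups from the sterol ring, stood at 184, 163, 155 and 161 CPM in the bladder libraries and 85.2, 49.9, 51.2 and 45.9 CPM in the urethral libraries, with urethra replicate 1 the highest of the lower group (2.85-fold, log2 fold change 1.51, SE 0.19, adjusted p = 0.000802). The smallest difference was that of Acat2, which joins acetyl-CoA units, at 122 to 179 CPM against 108 to 122 CPM (log2 fold change 0.46, adjusted p = 0.0154). Of 17 genes of sterol uptake and control, 8 were higher in bladder and 3 in urethra, against 23.1% and 20.9% of all tested genes. Srebf2 was 1.67-fold higher in bladder (477 to 553 CPM against 251 to 406 CPM, adjusted p = 0.00395). The 3 on the urethral side act in sterol export: the transporters Abcg1 and Abca1 and the lysosomal protein Npc1. Abcg1 stood at 2.83 to 7.46 CPM in bladder against 10.2 to 17.2 CPM in urethra (log2 fold change -1.49, adjusted p = 0.00674) and Npc1 at 33.5 to 38.7 CPM against 47.2 to 56.1 CPM (log2 fold change -0.48, adjusted p = 0.00336). Abca1 no longer passed without bladder replicate 2 (adjusted p = 0.0561), and 5 of the 17 were on the urethral side without bladder replicate 3.

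Fatty acid genes that passed were mostly higher in bladder. Of 20 tested, 11 were higher in bladder and 1, the desaturase gene Scd1, in urethra. The median of 0.40 turned to -0.52 under the pan-epithelial scaling, where the median of all genes was -0.96. Me1, the malic enzyme that makes NADPH for lipid synthesis, stood at 442, 348, 229.6 and 366 CPM in the bladder libraries and 107, 46.1, 49.8 and 33.9 CPM in the urethral libraries, without overlap (5.86-fold, log2 fold change 2.55, SE 0.37, adjusted p = 0.00128). The elongases Elovl6 and Elovl1 were 3.53-fold and 2.97-fold higher, and Dgat2, which completes triglyceride, 6.72-fold (adjusted p = 0.00144, 0.000638 and 0.00160). Fasn, the synthase itself, did not pass (409 to 601 CPM against 408 to 546 CPM, log2 fold change 0.15, adjusted p = 0.423). Scd1 stood at 11, 9.39, 14.3 and 11.1 CPM in the bladder libraries and 12.8, 22.2, 26.6 and 18.3 CPM in the urethral libraries. Scd1 no longer passed without bladder replicate 2 or 4 or urethra replicate 2 or 3 (adjusted p = 0.0539 to 0.0624), and with the mesenchyme score as a covariate 0 of the 20 passed as higher in urethra, while without urethra replicate 1 there were 2. Dgat2 went from 2.75 to 3.38 without urethra replicate 1.

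Most nuclear genes of the respiratory chain that were tested differed by a small amount. Of 38 tested subunits of complexes I to V, 36 were higher in bladder and 0 in urethra by edgeR, and every one of the 38 had a positive log2 fold change, from 0.20 to 0.71 with a median of 0.46, which turned to -0.44 under the pan-epithelial scaling, where the median of all genes was -0.96. None of the 38 reached 2-fold. Uqcrq, a complex III subunit, stood at 88.3, 89.6, 86.1 and 93.5 CPM in the bladder libraries and 55.7, 50.8, 56.4 and 55.4 CPM in the urethral libraries. Every bladder value was above every urethral value and the spread within a tissue was under 8 CPM (1.64-fold, log2 fold change 0.71, SE 0.07, adjusted p = 0.000329). Sdhd, an anchor of complex II, was 1.63-fold, Ndufv1, of complex I, 1.47-fold, and Atp5b, of the ATP synthase, 1.43-fold higher (adjusted p = 0.000400, 0.000528 and 0.00153). Genes encoded in the mitochondrion had 0 counts in all libraries and could not be compared.

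The 46 cytosolic ribosomal protein genes, another set of abundant housekeeping genes, had a median of 0.01 and ran from -0.19 to 0.26. One of them, Rplp1, passed as higher in bladder (784 to 870.1 CPM against 644 to 739.6 CPM, adjusted p = 0.0248). Rplp1 no longer passed without any one library except bladder replicate 1 and 4 and urethra replicate 1 (adjusted p = 0.0502 to 0.0700), the count was 2 without bladder replicate 1 or urethra replicate 1, and it was 0 with the mesenchyme score as a covariate. Of 36 cell cycle genes, 15 were higher in bladder and 0 in urethra by edgeR. Their median of 0.30 turned to -0.66 under the pan-epithelial scaling, where the median of all genes was -0.96. Cdc6, which loads the replicative helicase, stood at 58.7, 101, 79.1 and 96.9 CPM in the bladder libraries and 29.6, 34.6, 41.9 and 33.0 CPM in the urethral libraries, without overlap (2.41-fold, log2 fold change 1.27, SE 0.18, adjusted p = 0.00122). Ccnb2, a cyclin of mitosis, was 1.71-fold higher (adjusted p = 0.00334). Mki67, the proliferation antigen, did not pass (297 to 409.5 CPM against 266 to 352 CPM, adjusted p = 0.160). The count of 15 fell to 6 without bladder replicate 2, and to 8 without bladder replicate 4, urethra replicate 2 or urethra replicate 4, and to 4 with the mesenchyme score as a covariate.

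Glutathione enzymes conjugate and reduce reactive compounds. Of 35 tested genes of xenobiotic and glutathione metabolism, 18 were higher in bladder and 5 in urethra. The median of 0.46 turned to -0.46 under the pan-epithelial scaling, where the median of all genes was -0.96. Gsta4, a transferase for lipid peroxidation products, stood at 953, 715, 555 and 725 CPM in the bladder libraries and 344, 183, 159.7 and 162 CPM in the urethral libraries, without overlap (3.48-fold, log2 fold change 1.80, SE 0.28, adjusted p = 0.00171). Gstm2 and Gsr, the reductase that regenerates glutathione, were 2.41-fold and 2.41-fold higher with tight replicates (87.0 to 97.2 CPM against 33.1 to 48.6 CPM, and 104 to 129 CPM against 37.5 to 57.3 CPM, adjusted p = 0.000432 and 0.000462). Reads of the Gsta and Gstm families may have been shared among near copies. The 5 on the urethral side were Gpx2, Gstt1, Gstm5, Ahrr and Cyp2j6. Gpx2, a glutathione peroxidase of gut epithelium, stood at 1.00, 0.628, 1.08 and 0.809 CPM in the bladder libraries and 13.3, 14.3, 7.79 and 18.47 CPM in the urethral libraries, and its lowest urethral library was 7 times above its highest bladder library (15.3-fold, log2 fold change -3.94, SE 0.32, adjusted p = 0.000282). In the fit with the mesenchyme covariate 11 bladder genes of the list passed. Cyp2j6 no longer passed without any one library except bladder replicate 1 and urethra replicate 3 (adjusted p = 0.0642 to 0.103).

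Membrane serine proteases act at the epithelial surface, where they cleave sodium channel subunits and growth factor precursors. Of 15 tested proteases and inhibitors, 9 were higher in bladder and 2, Prss23 and Hpn, in urethra, and the median of 1.16 was above the 0.95 of the pan-epithelial genes. Tmprss2 (chromosome 16, 97564682 to 97611195) stood at 724, 517, 392 and 498 CPM in the bladder libraries and 167, 73.0, 72.4 and 59.2 CPM in the urethral libraries, without overlap and with urethra replicate 1 the highest of the lower group (5.73-fold, log2 fold change 2.52, SE 0.36, adjusted p = 0.00116). Prss8, or prostasin, stood at 153, 136, 101 and 132 CPM in the bladder libraries and 60.2, 40.2, 36.9 and 32.5 CPM in the urethral libraries, again without overlap (3.07-fold, log2 fold change 1.62, SE 0.21, adjusted p = 0.000806). Spint1, the inhibitor of matriptase and hepsin, was 2.91-fold higher, and St14, matriptase itself, 1.73-fold (adjusted p = 0.00339 and 0.00301). Prss23, a secreted protease, stood at 3.71 to 13.6 CPM in bladder against 17.3 to 36.9 CPM in urethra (log2 fold change -2.03, adjusted p = 0.00535). Hpn no longer passed without bladder replicate 3 or urethra replicate 1 or 2 (adjusted p = 0.0540 to 0.0611).

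**Figure D3:**
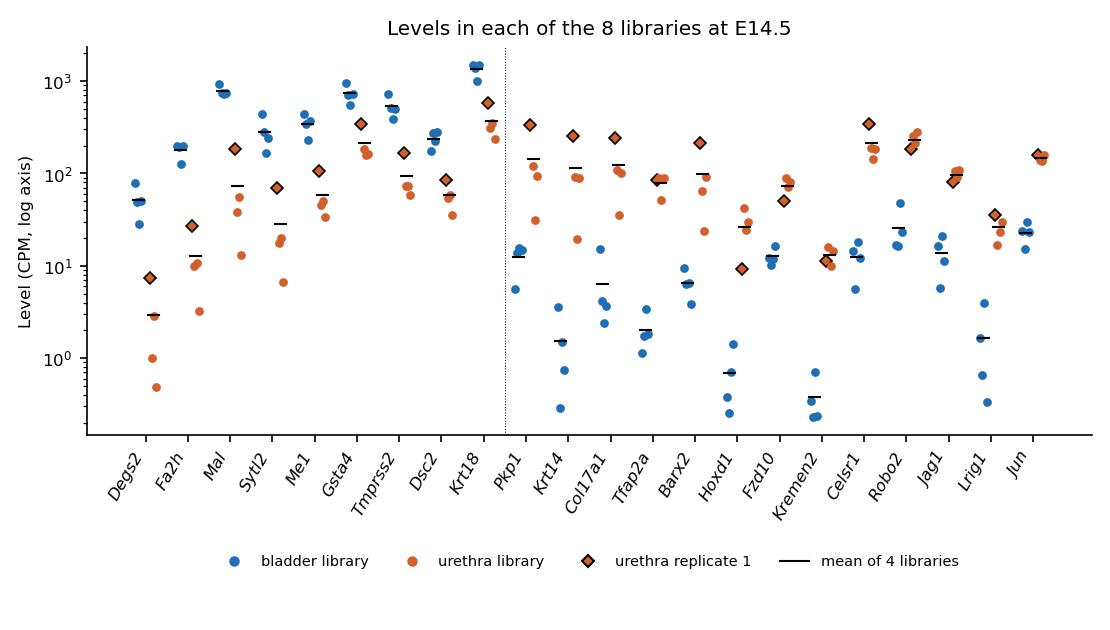
Levels of 22 genes in each of the 8 libraries (vertical axis, CPM on a log axis), blue for bladder, orange for urethra, diamonds for urethra replicate 1 and bars for the mean of 4. Genes left of the dotted line were higher in bladder and genes to its right higher in urethra. In all 9 bladder genes and in 6 of the 13 urethral genes the diamond is the highest urethral value, as with Degs2 (7.39 CPM against 0.488 to 2.85 CPM) and Pkp1 (332 CPM against 31.7 to 120.2 CPM).

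Desmosomes, the plaques that hold epithelial cells to each other, differed in their subunits. Of 11 tested genes, 4 were higher in bladder (Dsc2, Dsg2, Pkp2 and Pkp4) and 3 higher in urethra (Pkp1, Dsg3 and Dsc3), so each family of desmosomal cadherin, and the plakophilins, had a member on either side. Among all tested genes 23.1% were higher in bladder and 20.9% in urethra. The list median of 0.35 turned to -0.54 under the pan-epithelial scaling, where the median of all genes was -0.96. Dsc2, a desmocollin of simple epithelia, stood at 177, 273, 226 and 280.5 CPM in the bladder libraries and 85.1, 53.7, 58.4 and 35.9 CPM in the urethral libraries (4.11-fold, log2 fold change 2.04, SE 0.26, adjusted p = 0.000816). Its relative Dsc3, of basal layers, stood at 2.26 to 3.14 CPM in bladder against 4.06 to 11.3 CPM in urethra (2.29-fold, adjusted p = 0.0253). Pkp2, the plakophilin of simple epithelia, was 2.43-fold higher in bladder, and Dsg2, a widespread desmoglein, 2.47-fold (adjusted p = 0.000884 and 0.00692). Pkp1 (chromosome 1, 135871395 to 135919207), the plakophilin of stratified epithelia, stood at 5.55, 13.6, 15.7 and 14.9 CPM in the bladder libraries and 332, 120.2, 31.7 and 93.2 CPM in the urethral libraries. Its groups did not overlap, though the urethral libraries spread more than 10-fold among themselves (11.6-fold, log2 fold change -3.54, SE 0.69, adjusted p = 0.00444). Dsg3, the desmoglein of basal squamous layers, was at 0.670 to 9.96 CPM in urethra and 0 to 0.188 CPM in bladder (48.4-fold, log2 fold change -5.6, SE 1.20, adjusted p = 0.00674). Dsp, the plaque protein that all desmosomes share, did not pass (925 ± 94.7 CPM against 966 ± 545 CPM, SD, n = 4 each, adjusted p = 0.893). Without urethra replicate 1 Pkp1 and Dsg3 went to -2.71 and -4.15 on the log2 scale and 7 of the 11 were higher in bladder. Dsg3 was at -6.97 without bladder replicate 1, and Dsc3 no longer passed without bladder replicate 1 or 2 and Pkp4 without any one library except bladder replicate 1 and 3 and urethra replicate 1 (adjusted p = 0.0506 to 0.104).

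Tight junction genes were also called on both sides. Of 19 scaffold and adhesion genes, 10 were higher in bladder and 4 in urethra. The median of 0.61 turned to -0.28 under the pan-epithelial scaling, where the median of all genes was -0.96. The bladder genes included the scaffold Tjp3, Ocln and the polarity gene Crb3, and the 4 on the urethral side were the angiomotin relatives Amotl1 and Amotl2 and the junctional adhesion genes Jam2 and Jam3. Jam2 no longer passed without bladder replicate 4 or urethra replicate 2 or 3 and Jam3 without bladder replicate 4 (adjusted p = 0.0504 to 0.0555). When the mesenchyme score was a covariate, 1 of these 4 passed. Of 14 claudins, 5 were higher in bladder (Cldn1, Cldn4, Cldn7, Cldn8 and Cldn12) and 2 in urethra (Cldn9 and Cldn11), against 23.1% and 20.9% of all tested genes, with a median of -0.57. Cldn4, a claudin that tightens the barrier, stood at 989.7, 889, 754 and 816 CPM in the bladder libraries and 559, 319, 314 and 246 CPM in the urethral libraries (2.40-fold, log2 fold change 1.26, SE 0.24, adjusted p = 0.00386). Cldn1 was 2.53-fold higher in bladder, and its 4 urethral values lay at 7.07 to 7.41 CPM. Of 12 connexins, the channels of gap junctions, 3 were higher in bladder, Gjb5 and Gjb6 among them, and 2 in urethra, with Gjc1 among them, which are shares near the 23.1% and 20.9% of all tested genes. Gjb5 stood at 8.81 to 12 CPM in bladder against 0.976 to 2.05 CPM in urethra (6.79-fold, log2 fold change 2.76, SE 0.26, adjusted p = 0.000375), and Gjc1 at 9.59 to 25.9 CPM against 43.3 to 71.2 CPM (3.94-fold, log2 fold change -1.98, SE 0.32, adjusted p = 0.00190). Gjb6 went from 2.72 to 4.13 without urethra replicate 1 and lost its call without urethra replicate 2 (adjusted p = 0.0581). Without bladder replicate 3, 4 connexins were on the urethral side. Cldn11 no longer passed without any one library except bladder replicate 3 and urethra replicate 1 and Cldn12 without any one library except bladder replicate 3 and urethra replicate 1 and 4 (adjusted p = 0.0640 to 0.0855). Cldn11 was at -3.13 against -1.99 without bladder replicate 3, and 0 claudins were higher in urethra with the mesenchyme score as a covariate.

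Keratins are paired type I and type II filament proteins whose choice marks the kind of epithelium. Of 13 tested type II keratins, 3 were higher in bladder (Krt7, Krt8 and Krt78) and 7 in urethra, and of 9 type I keratins 3 were higher in each tissue (medians -1.77 and -0.82). Among all tested genes 23.1% were higher in bladder and 20.9% in urethra, so the type II bladder count was no more than that share. The lists held 24 type II and 27 type I keratins that were measured, and those not tested were too low for the count filter. Levels per length give their order. In bladder the simple epithelial keratins Krt8, Krt19 and Krt18 led, at 1219, 972 and 938 CPM per kb, with the basal keratin Krt15 next at 634. In urethra Krt15 led at 1143 CPM per kb, followed by Krt5 at 652, Krt19 at 398, Krt8 at 376 and Krt18 at 258. The difference for Krt15 itself did not pass (852 to 1523 CPM against 901 to 3391 CPM, adjusted p = 0.0883), but passed without urethra replicate 3 (log2 fold change -1.10, adjusted p = 0.0185). Krt14, the basal partner of Krt5, stood at 3.57, 0.286, 1.51 and 0.742 CPM in the bladder libraries and 256, 91.7, 19.5 and 90.2 CPM in the urethral libraries. Urethra replicates 1 and 3 were the extremes of the higher group, and no urethral value came near the bladder ones (74.9-fold, log2 fold change -6.23, SE 0.99, adjusted p = 0.00181). Krt75, a keratin of hair follicle and tongue, stood at 10.5, 7.99, 6.97 and 9.54 CPM in the bladder libraries and 98.4, 102, 40.7 and 72.7 CPM in the urethral libraries (8.95-fold, log2 fold change -3.16, SE 0.30, adjusted p = 0.000368). Krt20, of mature urothelial and gut surface cells, stood at 31.3, 27.4, 5.6 and 36.6 CPM in the bladder libraries and 5.73, 2.82, 3.01 and 3.01 CPM in the urethral libraries, where bladder replicate 3 fell below urethra replicate 1 (6.94-fold, log2 fold change 2.79, SE 0.54, adjusted p = 0.00423). Krt14 was at -7.20 and -5.45 without bladder replicate 1 and urethra replicate 1 in turn. Krt5 (-2.75) was at -3.97 without bladder replicate 1 and lost its call without bladder replicate 2 or 4 (adjusted p = 0.0647 and 0.0583). Krt78 no longer passed without any one library except bladder replicate 3 and 4 and urethra replicate 1 (adjusted p = 0.0532 to 0.0764), and without urethra replicate 1 Krt78 went from 1.71 to 2.56 and 5 type I keratins were higher in bladder. Adding the mesenchyme score as a covariate, 4 type II keratins were higher in urethra.

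Genes of the cornified envelope and of squamous layers did not move as 1 group. Of 17 tested, 7 were higher in bladder and 4 in urethra, against 23.1% and 20.9% of all tested genes. On the bladder side were Evpl (envoplakin), the small proline-rich gene Sprr1a, Ivl (involucrin), Rptn, Dmkn, Sbsn and Ly6d, and on the urethral side the suprabasal keratins Krt1 and Krt10, Lor (loricrin) and Lypd3. Ivl stood at 290.4, 144, 84.1 and 141 CPM in the bladder libraries and 33.1, 4.80, 7.50 and 1.5 CPM in the urethral libraries (14.1-fold, log2 fold change 3.82, SE 0.87, adjusted p = 0.00858). Krt1 stood at 3.57, 3.77, 4.14 and 3.34 CPM in the bladder libraries and 61.8, 22.1, 7.20 and 20.3 CPM in the urethral libraries, with the lowest urethral library less than 2 times above the highest bladder library (7.51-fold, log2 fold change -2.91, SE 0.57, adjusted p = 0.00454). Krt10 was 2.15-fold and Lor 3.35-fold higher in urethra (adjusted p = 0.00984 and 0.0217). Leaving out urethra replicate 1, the log2 fold changes of Ivl, Sprr1a, Ly6d and Krt1 went from 3.82, 2.90, 2.87 and -2.91 to 5.17, 3.66, 4.84 and -2.15, and 12 of the 17 were higher in bladder. Dmkn, Rptn and Lypd3 (1.92, 3.06 and -1.89) were at 2.82, 5.34 and -1.14 without it. Ly6d no longer passed without any one library except bladder replicate 3 and urethra replicate 1, Dmkn without any one library except bladder replicate 3 and urethra replicate 1 and 4, Rptn without any one library except bladder replicate 3 and urethra replicate 1, Sbsn without any one library except urethra replicate 1, Lypd3 without bladder replicate 2, 3 or 4 and Lor without bladder replicate 4 (adjusted p = 0.0511 to 0.0949), and Lypd3 did not pass by limma voom (adjusted p = 0.0889). The bladder count was 3 without bladder replicate 1 or 4 and 4 without bladder replicate 2 or urethra replicate 2 or 3, and the urethral count was 7 without urethra replicate 3. Under the mesenchyme covariate 3 were higher in bladder.

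Some genes that anchor basal cells to the matrix were higher in urethra. Of 25 hemidesmosome and basement membrane genes, 8 were higher in urethra and 2, Fras1 and Plec, in bladder, against 20.9% and 23.1% of all tested genes (median -0.30). Col17a1, the transmembrane collagen of the hemidesmosome, stood at 15.4, 4.17, 2.40 and 3.68 CPM in the bladder libraries and 245, 108, 35.3 and 100.2 CPM in the urethral libraries, without overlap (18.9-fold, log2 fold change -4.24, SE 0.77, adjusted p = 0.00318). Col7a1, the anchoring fibril collagen, was at 1.28 to 5.89 CPM in bladder against 20.4 to 157 CPM in urethra (24.5-fold, log2 fold change -4.62, SE 0.74, adjusted p = 0.00190), and Hspg2 (perlecan), a matrix proteoglycan made by epithelium and mesenchyme, at 90.5 to 191 CPM against 348 to 507 CPM (3.22-fold, log2 fold change -1.69, SE 0.25, adjusted p = 0.00136). The receptor pair of the hemidesmosome did not pass. Itga6 stood at 177 to 189.5 CPM against 142 to 241 CPM (adjusted p = 0.761) and Itgb4 at 80.0 to 126 CPM against 59.9 to 202 CPM (adjusted p = 0.447). Itga6 passed as higher in bladder without urethra replicate 1 (log2 fold change 0.26, adjusted p = 0.0199). Fras1, of the basement membrane under the epithelium, was 1.45-fold higher in bladder with overlapping groups (adjusted p = 0.0151). Plec, a linker of hemidesmosome and keratin, was 1.49-fold higher, and Plec no longer passed without any one library except bladder replicate 3 and urethra replicate 1 (adjusted p = 0.0553 to 0.0727). Without bladder replicate 1, Col17a1 and Col7a1 were at -5.16 and -5.21, and without urethra replicate 1 at -3.64 and -3.97. The urethral count was 5 without bladder replicate 2 or 4, and 3 with the mesenchyme score as a covariate. The bladder count was 6 without urethra replicate 1 and 0 with the mesenchyme score.

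In several families of patterning factors most tested members were higher in urethra. All 5 tested Iroquois and related factors (Irx1, Irx2, Irx3, Irx5 and Mkx), 9 of 10 Eya, Dach and related homeobox genes, 7 of 9 Pax, LIM and Bar genes and 9 of 16 Sox genes were higher in urethra, and 0 of these 40 genes were higher in bladder by edgeR. The lists held 7, 12, 25 and 19 measured genes, and those not tested were too low for the count filter. A gene near 0 in bladder, such as Lhx1 (0 to 0.135 CPM), could pass that filter only through urethra. The counts of these families were thus partly set by the filter. Family medians were -5.45, -1.83, -4.08 and -1.21. Of the 7 Pax, LIM and Bar genes, 3 are also among the 8 nephric and Mullerian duct markers higher in urethra, and the part of duct cells in that count was not tested. Irx1 stood at 0.439, 0.228, 0.471 and 0.809 CPM in the bladder libraries and 46.2, 16.6, 7.33 and 14.9 CPM in the urethral libraries and Irx3 at 0.909, 0.400, 0.518 and 1.01 CPM in the bladder libraries and 43.1, 23.5, 6.66 and 20.0 CPM in the urethral libraries (log2 fold changes -5.45 and -5.02, adjusted p = 0.000751 and 0.000708). In both, urethra replicate 1 was the highest library and urethra replicate 3 the lowest of its group, and neither came near the bladder values. Tfap2a (chromosome 13, 40715302 to 40738376), an AP-2 factor of surface ectoderm and neural crest, stood at 1.13, 1.74, 3.39 and 1.82 CPM in the bladder libraries and 84.3, 89.5, 52.3 and 89.2 CPM in the urethral libraries, with urethra replicate 3 well below the rest of its group and far above the bladder values (39.8-fold, log2 fold change -5.31, SE 0.35, adjusted p = 0.000262). Its relative Tfap2b was higher in urethra as well (0.0675 to 1.70 CPM against 2.25 to 12.2 CPM, adjusted p = 0.0132), while Tfap2c did not pass (41.6 to 70.2 CPM against 17.5 to 46.7 CPM, adjusted p = 0.0838). Barx2, a homeobox factor of glandular and muscle tissue, stood at 9.46, 6.37, 6.50 and 3.84 CPM in the bladder libraries and 213, 65.0, 23.7 and 92.0 CPM in the urethral libraries (15-fold, log2 fold change -3.91, SE 0.64, adjusted p = 0.00216). Isl1, a LIM homeobox factor, was 5.21-fold higher (17.8 to 41.4 CPM against 85.4 to 185 CPM, adjusted p = 0.000999), and Sp8, a limb and craniofacial zinc finger factor, 58.1-fold (adjusted p = 0.000467). Dach2 and Six4, cofactor and factor of the same network, were higher by less, 3.03-fold and 2.18-fold (adjusted p = 0.00144 and 0.000463). Without urethra replicate 1 Irx1 and Barx2 were at -4.72 and -3.19, and Tfap2c passed as higher in bladder (0.90, adjusted p = 0.0267). Irx5 (-6.59) was at -7.67 without bladder replicate 1, Tfap2b at -3.99 without bladder replicate 3 and Sp8 at -6.88 without bladder replicate 4. Mkx (-2.45), a mesenchymal tendon factor, was at -3.27 without bladder replicate 3. With the mesenchyme score as a covariate 1 of the 3 AP-2 genes passed.

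Of 11 Grainyhead, Ovol and GATA factors, Gata2, Gata6 and Grhl3 were higher in bladder, a share near the 23.1% of all tested genes, and 0 in urethra by edgeR. The median of 0.54 turned to -0.47 under the pan-epithelial scaling, where the median of all genes was -0.96. Gata2 stood at 359, 439.9, 326 and 468 CPM in the bladder libraries and 112, 221, 278 and 149.6 CPM in the urethral libraries (2.09-fold, log2 fold change 1.07, SE 0.27, adjusted p = 0.0133), and Grhl3, which drives the surface layer of urothelium and epidermis, at 304, 433, 347 and 458 CPM in the bladder libraries and 298, 201, 115 and 168 CPM in the urethral libraries (1.97-fold, log2 fold change 0.98, SE 0.27, adjusted p = 0.0197). Gata3, a urothelial and ductal factor, did not pass (233 ± 42.8 CPM in bladder and 233 ± 64.7 CPM in urethra, SD, n = 4 each, adjusted p = 0.990). Gata6 was 2.29-fold higher in bladder (adjusted p = 0.0376). Gata6 was at 1.80 without urethra replicate 3. Gata6 no longer passed without any one library except urethra replicate 3 and Grhl3 without bladder replicate 2 or 4 or urethra replicate 4 (adjusted p = 0.0529 to 0.0952), and 0 of the 11 passed with the mesenchyme score as a covariate. None of 8 tested T-box factors passed by edgeR.

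Hox genes lie in 4 clusters, and genes at the 5' end of a cluster are expressed toward the tail. In HoxD 7 of 9 tested genes had the higher level in urethra and 1, Hoxd8, in bladder, with a median of -1.99. Of HoxA 4 of 11 (Hoxa2, Hoxa3, Hoxa5 and Hoxa13), of HoxB 2 of 10 (Hoxb3 and Hoxb8) and of HoxC 1 of 5 (Hoxc4) were higher in urethra, and 1 of HoxA (Hoxa7) and 1 of HoxB (Hoxb2) in bladder. The urethral shares of HoxB and HoxC were near the 20.9% of all tested genes. The medians of HoxA, HoxB and HoxC were -0.55, -0.11 and -1.10. Along HoxD the differences passed as higher in urethra at both ends, with 1 gene that did not pass and 1 on the bladder side between them. Hoxd13, at the 5' end, stood at 18.4, 26.9, 50.6 and 38.6 CPM in the bladder libraries and 121, 190.2, 196 and 187 CPM in the urethral libraries (5.17-fold, log2 fold change -2.37, SE 0.31, adjusted p = 0.000886). Hoxd1 (chromosome 2, 74762980 to 74765142), at the 3' end, stood at 0.376, 0.257, 0.706 and 1.42 CPM in the bladder libraries and 9.20, 42.6, 24.5 and 29.5 CPM in the urethral libraries, with no overlap (38.6-fold, log2 fold change -5.27, SE 0.66, adjusted p = 0.000755). Between them Hoxd9 did not pass (6.31 to 11.9 CPM against 7.17 to 18.7 CPM, adjusted p = 0.366). Hoxd8 stood at 45.1, 38.2, 36.8 and 42.8 CPM in the bladder libraries and 27.6, 32.6, 36.9 and 25 CPM in the urethral libraries, where urethra replicate 3 overlapped the bladder values (log2 fold change 0.42, adjusted p = 0.0348). Per length, Hoxd13 led the cluster in urethra at 69.8 CPM per kb, with Hoxd12 at 21.5 and Hoxd1 at 14.2. In bladder Hoxd8 led at 14.8, Hoxd13 stood at 13.5 and Hoxd1 at 0.370 CPM per kb. Of the neighbours plotted with the cluster, Evx2, beyond Hoxd13, was 11.5-fold and the antisense RNA gene Haglr, beside Hoxd1, 26.9-fold higher in urethra (adjusted p = 0.00269 and 0.000438). Reads of Haglr and of the genes it overlaps cannot be told apart where the strand setting is unknown. Hoxd8 no longer passed without any one library except bladder replicate 3 and urethra replicate 3, Hoxa3 without any one library except bladder replicate 2 and 3 and urethra replicate 3 and Hoxb2 without bladder replicate 2 or urethra replicate 2 (adjusted p = 0.0555 to 0.106). Hoxd1 was at -5.93 without bladder replicate 4 and Evx2 at -4.40 without bladder replicate 3. Hoxb8 (-2.12) was at -1.47 without urethra replicate 3. HoxA held 2 bladder genes without urethra replicate 1, HoxB 2 without bladder replicate 3 or urethra replicate 3, and HoxC held 5 urethral genes without bladder replicate 3 and 2 without bladder replicate 1, 2 or 4 or urethra replicate 1. When the mesenchyme score was a covariate, 0 genes of the 4 clusters were higher in bladder. In urethra 3 of HoxA, 1 of HoxB, 1 of HoxC and 5 of HoxD were higher with that covariate.

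**Figure D4:**
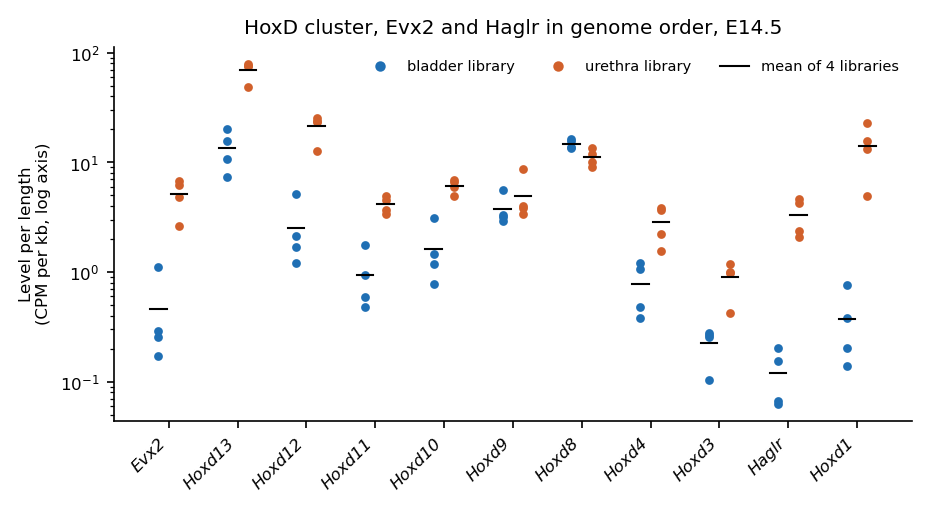
Levels of the HoxD genes, Evx2 and Haglr in genome order in each library (vertical axis, CPM per kb of gene model on a log axis), with bars for the mean of 4. The tissues separate at both ends of the cluster and overlap at Hoxd9 and Hoxd8, where the bladder means were 3.76 and 14.8 and the urethral means 4.99 and 11.1 CPM per kb.

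Wnt proteins act through Frizzled receptors with LRP or ROR partners and are held back by secreted inhibitors. Of 21 receptors and partners 11 were higher in urethra and 1, Fzd5, in bladder, and of 14 secreted or surface inhibitors 10 were higher in urethra and 2, Kremen1 and Dkkl1, in bladder. The medians were -0.95 and -1.41. Fzd10 (chromosome 5, 128600844 to 128604093) stood at 12.3, 10.3, 11.9 and 16.2 CPM in the bladder libraries and 50.4, 90.1, 71.6 and 80.2 CPM in the urethral libraries, without overlap (5.77-fold, log2 fold change -2.53, SE 0.21, adjusted p = 0.000284). Fzd3 and Fzd2 were 2.35-fold and 1.88-fold higher and Ror2, a receptor for Wnt5a, 1.77-fold (adjusted p = 0.000334, 0.00194 and 0.00328). Fzd5 went the other way, at 39.9, 45.3, 37.4 and 47.2 CPM in the bladder libraries and 20.2, 12.1, 14.2 and 11 CPM in the urethral libraries (2.95-fold, log2 fold change 1.56, SE 0.19, adjusted p = 0.000738). Kremen2, a partner of Dickkopf inhibitors, stood at 0.345, 0.228, 0.706 and 0.236 CPM in the bladder libraries and 11.4, 16, 9.92 and 14.6 CPM in the urethral libraries (35.1-fold, log2 fold change -5.13, SE 0.40, adjusted p = 0.000281), while its relative Kremen1 was 1.93-fold higher in bladder with overlapping groups (adjusted p = 0.00931). Wif1, which binds Wnt proteins directly, was at 0.171 to 0.944 CPM in bladder against 4.37 to 8.58 CPM in urethra (13.5-fold, log2 fold change -3.76, SE 0.49, adjusted p = 0.000858). Dkkl1, a Dickkopf relative, went from 3.08 to 4.08 without urethra replicate 1. Of 17 genes that Wnt signalling switches on, 14 were higher in urethra and Myc and Ascl2 in bladder (median -2.04). Myc stood at 46.4 to 71.1 CPM in bladder against 16.2 to 25.2 CPM in urethra (2.79-fold, log2 fold change 1.48, SE 0.18, adjusted p = 0.000715), and Ascl2 at 4.52 to 8.96 CPM against 0.670 to 3.52 CPM (adjusted p = 0.0154, and log2 fold change 3.12 without urethra replicate 1). Adding the mesenchyme score as a covariate, 6 inhibitors and 9 target genes passed as higher in urethra and 1 of each in bladder, and without urethra replicate 3 there were 6 inhibitors.

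Planar polarity proteins align cells within a sheet, and Eph and guidance receptors sort cells at boundaries. Of 20 genes of planar polarity 11 were higher in urethra and 0 in bladder by edgeR (median -0.79), of 21 Eph receptors and ephrins 13 and 2 (-0.62), and of 48 semaphorins, slits, netrins and their receptors 22 and 4 (-1.26). Celsr1 (chromosome 15, 85898929 to 86033777), the atypical cadherin at the core of planar polarity, stood at 14.5, 5.62, 18.1 and 12 CPM in the bladder libraries and 340.5, 187, 144 and 184 CPM in the urethral libraries. The lowest urethral library was about 8 times above the highest bladder library (17.1-fold, log2 fold change -4.10, SE 0.41, adjusted p = 0.000433). Celsr2, its relative, was 4.01-fold, Ptk7 2.44-fold and Vangl2, a core membrane protein, 1.65-fold higher (adjusted p = 0.000446, 0.000438 and 0.000528). The receptor gene Ephb2 stood at 39.5 to 55.0 CPM in bladder against 117 to 167 CPM in urethra (2.83-fold, log2 fold change -1.5, SE 0.14, adjusted p = 0.000368). The ephrin gene Efna4 was 2.79-fold higher in urethra, and Epha1, one of the 2 bladder members with Epha2, 2.23-fold higher in bladder (adjusted p = 0.000375 and 0.00307). Robo2, a slit receptor, stood at 17.0, 16.2, 47.8 and 23.0 CPM in the bladder libraries and 182, 252, 216 and 283 CPM in the urethral libraries, with bladder replicate 3 above the other bladder libraries and far below the urethral ones (9.01-fold, log2 fold change -3.17, SE 0.37, adjusted p = 0.000601). Robo1 was 4.74-fold higher, Dcc, a netrin receptor, 7.37-fold, and Plxna3, a semaphorin receptor, 2.53-fold (adjusted p = 0.000284, 0.00191 and 0.000300). Sema3b was 1 of the 4 bladder genes, with Plxnb2, Sema4a and Sema4g (49.6 to 72.3 CPM against 11.4 to 21.4 CPM, 4.16-fold, log2 fold change 2.06, SE 0.22, adjusted p = 0.000465). Epha2 no longer passed without any one library except bladder replicate 3 and urethra replicate 1 and 3 (adjusted p = 0.0574 to 0.0790). Under the mesenchyme covariate 1 Eph and 2 guidance genes were higher in bladder.

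Several signalling genes that mesenchyme also expresses were higher in urethra. Of 33 genes of the BMP pathway 16 were higher in urethra and 4 in bladder, of 18 hedgehog genes 10 and 2, of 22 FGF genes 9 and 0 and of 21 Notch genes 11 and 0 by edgeR. Their medians were -0.72, -1.02, -1.26 and -0.92. Bmp4, a ligand strong in mesenchyme, stood at 16.9, 12.2, 23.4 and 17.8 CPM in the bladder libraries and 18.2, 74.6, 98.4 and 76.1 CPM in the urethral libraries, and Gli1, a target of hedgehog signalling, at 12, 7.99, 18.2 and 14.3 CPM in the bladder libraries and 14.6, 62.1, 79.7 and 79.7 CPM in the urethral libraries. In both, urethra replicate 1 lay among the bladder values while the other 3 urethral libraries stood far above (adjusted p = 0.00972 and 0.00864). Pdgfra, the mesenchymal receptor, had the same pattern, at 84.7, 289, 348 and 324 CPM in urethra and 25.3 to 121 CPM in bladder (adjusted p = 0.0183, and 0.0536 without bladder replicate 4). The summed mesenchyme markers were 2503 CPM in urethra replicate 1 and 3634 to 7076 CPM in the other 3, and the part of mesenchymal RNA in these differences was not tested beyond a covariate. In the fit with the mesenchyme covariate 6 BMP, 7 hedgehog, 8 FGF and 7 Notch genes were higher in urethra. On the bladder side 2 BMP genes and 1 hedgehog gene passed with that covariate, 2 BMP genes without urethra replicate 2, and 1 hedgehog gene without bladder replicate 2 or 4.

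Other members of these pathways were separated in all 4 urethral libraries. Bambi, a decoy receptor for BMP and activin, stood at 33.9, 26.0, 37.0 and 37.0 CPM in the bladder libraries and 100.4, 113, 134 and 92.4 CPM in the urethral libraries (3.28-fold, log2 fold change -1.71, SE 0.15, adjusted p = 0.000310). The receptor gene Acvr2b was 2.23-fold higher in urethra (12.7 to 14.8 CPM against 26.4 to 34.5 CPM, adjusted p = 0.000495). On the bladder side Bmp3, an antagonistic ligand, stood at 336, 195, 97.6 and 208 CPM in the bladder libraries and 65.1, 23.3, 59.3 and 31.6 CPM in the urethral libraries (4.67-fold, log2 fold change 2.22, SE 0.44, adjusted p = 0.00454), and Id1, a target of BMP signalling, at 322, 368, 331 and 388 CPM in the bladder libraries and 199.9, 159.9, 149 and 151 CPM in the urethral libraries (2.13-fold, log2 fold change 1.09, SE 0.11, adjusted p = 0.000465). The ligand gene Bmp2 and the receptor gene Acvr2a were the remaining 2 of the 4. Bmp2 no longer passed without bladder replicate 1 or urethra replicate 2 or 4 and Acvr2a without bladder replicate 1, 2 or 4 or urethra replicate 2 (adjusted p = 0.0513 to 0.0677). Spry1, an inhibitor that FGF signalling induces, stood at 7.02 to 14 CPM in bladder against 26.6 to 35.2 CPM in urethra (3.38-fold, log2 fold change -1.76, SE 0.23, adjusted p = 0.000839). Jag1 (chromosome 2, 137081456 to 137116644), a Notch ligand, stood at 16.5, 5.77, 21.0 and 11.4 CPM in the bladder libraries and 80.1, 107, 92.2 and 110.1 CPM in the urethral libraries, without overlap (7.15-fold, log2 fold change -2.84, SE 0.36, adjusted p = 0.000757). Hey1, a target of Notch, was 6.02-fold higher in urethra (0.828 to 6.03 CPM against 11.3 to 18.51 CPM, adjusted p = 0.00754, and log2 fold change -3.4 without bladder replicate 3). The epithelial FGF receptor gene Fgfr2 did not pass (345 to 447 CPM against 374 to 575 CPM, adjusted p = 0.316).

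Lrig proteins restrain receptors of the EGF family. Lrig1 (chromosome 6, 94604529 to 94700158) stood at 1.66, 0.657, 4.00 and 0.337 CPM in the bladder libraries and 35.1, 16.9, 23.2 and 29.6 CPM in the urethral libraries and Lrig3 at 4.51, 2.94, 7.21 and 3.2 CPM in the bladder libraries and 25.9, 26.9, 22.5 and 29.1 CPM in the urethral libraries, both without overlap (16.2-fold, adjusted p = 0.00250, and 5.88-fold, adjusted p = 0.000553). Erbb4 was low in both tissues, at 0 to 0.377 CPM in bladder against 1.47 to 3.79 CPM in urethra (adjusted p = 0.00580). These were the 3 urethral genes of 14 tested in the EGF family, near the 20.9% of all genes, and the 2 on the bladder side were the ligand gene Tgfa and the receptor gene Erbb3. Tgfa no longer passed without any one library except bladder replicate 3 and urethra replicate 1 and Erbb3 without any one library except bladder replicate 3 and urethra replicate 1 (adjusted p = 0.0523 to 0.0992), and 0 were higher in bladder with the mesenchyme score as a covariate. Without urethra replicate 1, 4 were higher in bladder. Without bladder replicate 3, Lrig1 and Erbb4 were at -4.87 and -6.52 on the log2 scale.

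Retinoic acid is made by aldehyde dehydrogenases, carried by CRABP proteins and sensed by RAR receptors. Of 18 tested genes 9 were higher in urethra and 1, the retinol dehydrogenase gene Rdh11, in bladder. Aldh1a3 stood at 1.47, 0.343, 1.70 and 0.944 CPM in the bladder libraries and 7.35, 33.1, 201 and 52.7 CPM in the urethral libraries. The urethral libraries ran over a 27-fold range, and the lowest of them was still 4 times above the highest bladder library (67.7-fold, log2 fold change -6.08, SE 1.07, adjusted p = 0.00280). It was at -4.82 without urethra replicate 3, the highest library, and at -3.52 with the mesenchyme score as a covariate. Aldh1a3 did not pass by limma voom (log2 fold change -5.47, adjusted p = 0.0611), and its adjusted p was 3.64e-09 to 0.0222 under its other alternatives. Cdh16, a cadherin of the nephric duct and kidney, stood at 1.88, 0.114, 0.377 and 9.27 CPM in the bladder libraries and 7.30, 37.6, 117 and 36.7 CPM in the urethral libraries, with the same library highest and the same one lowest in urethra (16.9-fold, log2 fold change -4.08, SE 1.24, adjusted p = 0.0273). Cdh16 no longer passed without bladder replicate 1 or urethra replicate 2, 3 or 4 (adjusted p = 0.0501 to 0.0720), was at -5.93 without bladder replicate 4, and did not pass with the mesenchyme score as a covariate (log2 fold change -2.66, adjusted p = 0.414). The part of duct cells in the Aldh1a3 difference was not tested. Rarb, a receptor gene that retinoic acid induces, stood at 19.6, 20.0, 40.6 and 25 CPM in the bladder libraries and 83.6, 113, 93.5 and 112 CPM in the urethral libraries (3.84-fold, log2 fold change -1.94, SE 0.24, adjusted p = 0.000755), and Crabp2 was 5.92-fold higher (4.71 to 17.3 CPM against 37.8 to 83.2 CPM, adjusted p = 0.00282).

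Steroid receptors, and the enzymes that supply or remove their ligands, were called on both sides. Of 17 tested genes 6 were higher in urethra, among them the receptors Esr1, Esr2 and Pgr and the enzymes Srd5a2 and Sult2b1. The 7 higher in bladder were the mineralocorticoid receptor gene Nr3c2 and the enzymes Hsd17b2, Hsd17b4, Hsd17b7, Hsd17b12, Srd5a1 and Srd5a3. Esr1, estrogen receptor alpha, was at 4.51 to 5.82 CPM in bladder against 13 to 20.5 CPM in urethra, and Pgr, the progesterone receptor, at 1.82 to 4.05 CPM against 9.38 to 10.2 CPM (3.11-fold, adjusted p = 0.000590, and 3.85-fold, adjusted p = 0.000967). The 2 reductases that convert testosterone to dihydrotestosterone went in opposite directions. Srd5a1 stood at 409, 344, 231 and 345 CPM in the bladder libraries and 154, 99.9, 67.4 and 70.8 CPM in the urethral libraries, higher in bladder (3.39-fold, log2 fold change 1.76, SE 0.29, adjusted p = 0.00212), and Srd5a2, far lower, at 0.0627, 0.200, 0.895 and 0.0675 CPM in the bladder libraries and 1.17, 2.91, 2.34 and 2.93 CPM in the urethral libraries, higher in urethra (8.10-fold, log2 fold change -3.02, SE 0.78, adjusted p = 0.0146, and -4.32 without bladder replicate 3). Nr3c2 was 3.72-fold higher in bladder (adjusted p = 0.000528), while the glucocorticoid receptor gene Nr3c1 did not pass (111 to 130.1 CPM against 96.1 to 213 CPM, adjusted p = 0.419). Oxtr, the oxytocin receptor, was at 0 to 0.424 CPM in bladder against 2.85 to 27.5 CPM in urethra (69.7-fold, log2 fold change -6.12, SE 0.95, adjusted p = 0.00168, and -5.50 without urethra replicate 1). Esr2 no longer passed without any one library except bladder replicate 3 and Hsd17b4 without any one library except bladder replicate 3 and urethra replicate 1 and 2 (adjusted p = 0.0547 to 0.125). Esr2 (-2.81) was at -5.38 without bladder replicate 3 and Hsd17b2 (4.52) at 5.44 without urethra replicate 1. With the mesenchyme score as a covariate 4 of the list were higher in bladder.

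Single genes that answer to stress or interferon differed, and the counts of their lists lay near the shares of all tested genes in both directions. Jun (chromosome 4, 95049034 to 95052222), an immediate early factor, stood at 23.6, 15.2, 29.7 and 23.0 CPM in the bladder libraries and 157, 142, 135 and 157 CPM in the urethral libraries, a difference of 6.47-fold with a spread of 22 CPM among the urethral libraries (SE 0.19, adjusted p = 0.000264). Of 19 immediate early and heat shock genes tested, 5 were higher in urethra and 4 in bladder. Their median of 0.28 turned to -0.69 under the pan-epithelial scaling, where the median of all genes was -0.96. Ifitm3 and Ifitm1, interferon induced membrane proteins that are close relatives and may share reads, were 10.1-fold and 6.53-fold higher in urethra (4.05 to 11 CPM against 48.5 to 111 CPM, and 0.742 to 2.64 CPM against 7.96 to 12.8 CPM). Oas1a, which interferon also induces, was 3.98-fold higher in bladder (adjusted p = 0.000848), and the list of 21 held 5 urethral and 4 bladder genes. The 4 bladder calls of the immediate early list became 0 without bladder replicate 2 or urethra replicate 2, 1 without bladder replicate 1 or urethra replicate 3 or 4, 2 without bladder replicate 4 and 8 without urethra replicate 1. The urethral calls became 3 without bladder replicate 4 in that list, and 3 without bladder replicate 1 or 4 or urethra replicate 2 in the interferon list. Adding the mesenchyme score as a covariate, 0 bladder and 3 urethral genes of the immediate early list passed.

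The smallest adjusted p of all genes belonged to Cdh3, which encodes P-cadherin. It stood at 46.8, 38.7, 45.6 and 37.3 CPM in the bladder libraries and 184, 172, 188 and 171 CPM in the urethral libraries, with both groups tight (4.24-fold, log2 fold change -2.09, SE 0.09, adjusted p = 4.1e-05). Of 25 classical cadherins and nectins 8 were higher in urethra and 3, Cdh1, Cdh17 and Nectin2, in bladder (median -1.28). The urethral count was 5 without bladder replicate 4 or urethra replicate 2 or 4, and 3 with the mesenchyme score as a covariate, and the bladder count was 5 without urethra replicate 1. Cdh1 no longer passed without any one library except bladder replicate 1 and 3 and urethra replicate 1 (adjusted p = 0.0569 to 0.0696), and Cdh17 was at 4.59 on the log2 scale without urethra replicate 3, against 3.79 with all libraries.

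A few genes were read in 1 tissue and nearly absent from the other. With at least 1 CPM on one side and at most 3 counts in the 4 libraries of the other, 3 such genes were found in urethra and 1 in bladder. Mnx1, a motor neuron and pancreas homeobox factor, had 282 counts in urethra and 0 in bladder, at least 117-fold higher when 3 counts over the group are taken as the floor. Wnt10b, a Wnt ligand of skin appendages, had 736 counts against 2, a ratio of 459 (95% interval 127 to 3800). Sstr2, a somatostatin receptor, had 211 counts against 2, a ratio of 132 (36.0 to 1094). On the bladder side Serpinb9b, a serine protease inhibitor of a family with near copies, had 170 counts against 2, a ratio of 68.1 (18.6 to 567), and its 2 urethral counts both fell in replicate 1. These intervals and the floor cover counting error only, and without bladder replicate 1, which held both bladder counts of Wnt10b and of Sstr2, those genes had 0 counts in bladder. At higher levels Adamts18, a secreted metalloprotease, stood at 1.41, 0.685, 5.37 and 1.08 CPM in the bladder libraries and 237, 100.2, 34.8 and 92.6 CPM in the urethral libraries (57.1-fold, log2 fold change -5.84, SE 0.84, adjusted p = 0.00122), and was at -6.77 and -5.22 without bladder replicate 3 and urethra replicate 1 in turn. Irs4, an insulin receptor substrate, was 44.2-fold and Arhgef38, a guanine nucleotide exchange factor, 45.8-fold higher in urethra (adjusted p = 0.000300 and 0.000300).

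The E18.5 libraries, 3 of each tissue, allow the E14.5 differences to be set beside those of a later stage. The interaction of tissue and stage passed for 4183 of 18286 genes tested (22.9%), so that the tissue difference of these genes was not the same at both stages. The count was 2654 without urethra E18.5 replicate 1. A few E14.5 genes changed direction. Slc26a9, a chloride and bicarbonate transporter, stood at 2.10, 6.91, 5.32 and 8.77 CPM in the bladder libraries and 0.451, 0.337, 0.293 and 0.0813 CPM in the urethral libraries at E14.5, higher in bladder in all libraries. Its log2 fold change was 4.30 at E14.5 and -4.29 at E18.5, both past the threshold (interaction 8.56, adjusted p = 0.000209). Ihh, a hedgehog ligand of gut and cartilage, went from 1.97 to -4.16, Tmprss4 from 1.54 to -1.76 and Car2, a carbonic anhydrase, from 1.54 to -1.45 (interaction adjusted p = 0.00124, 0.000852 and 0.000228). Ptch1, a hedgehog receptor and target, went the other way, from -1.74 to 1.37 (adjusted p = 0.000240), and Id1 went from 1.09 to -0.47 (adjusted p = 0.000242). Ihh lost its E14.5 call without bladder replicate 2 or 4 (adjusted p = 0.0566 and 0.0583).

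Other urethral differences of E14.5 were smaller at E18.5. Krt14 went from -6.23 to -0.62, Lrig1 from -4.01 to 0.26, Cdh3 from -2.09 to -0.97, Sstr2 from -6.70 to -0.62 and Wnt10b from -8.51 to -0.28 (interaction adjusted p = 0.00330, 0.00390, 0.000646, 0.000646 and 0.000275). The fitted E14.5 values of Sstr2 and Wnt10b depend on the prior count, and were -8.86 and -10.67 without bladder replicate 1. Krt14 and Lrig1 moved as given above when a library was left out, to -7.20 and -5.45 without bladder replicate 1 and urethra replicate 1, and to -4.87 without bladder replicate 3. For others no difference between the stages was found. Tfap2a stood at -5.31 and -5.49 (interaction 0.14, adjusted p = 0.841), Krt17 at -7.04 and -6.39 (interaction -0.69, adjusted p = 0.663) and Scube2, which helps release hedgehog ligands, at 3.44 and 3.4 (adjusted p = 0.988). Krt17 was at -7.68 without bladder replicate 1, and Scube2 at 2.81 and 4.24 without bladder replicate 1 and urethra replicate 1 in turn. A p above the threshold here does not show that the differences were equal.

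**Figure D5:**
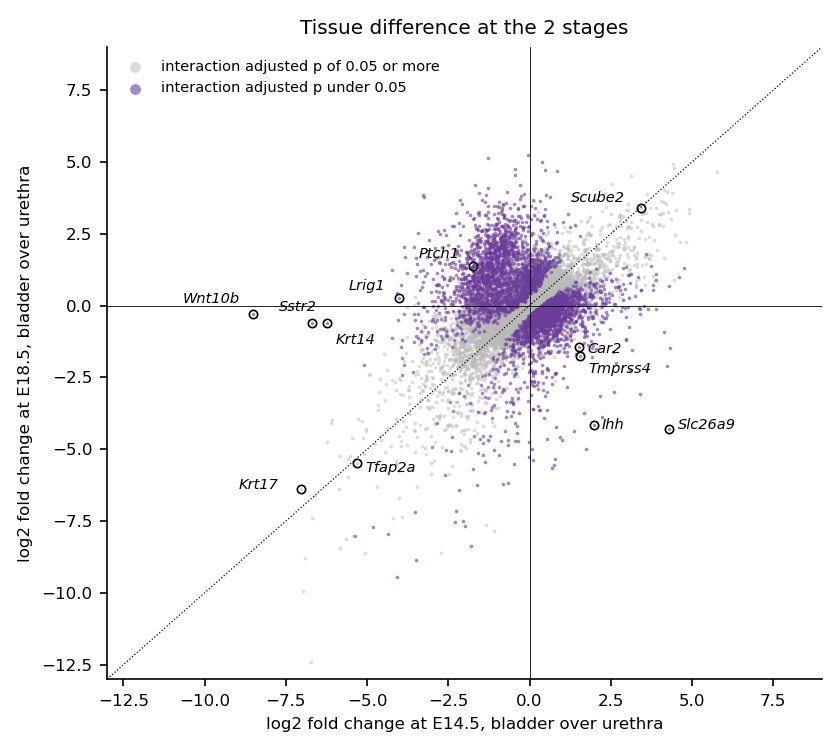
Log2 fold change of bladder over urethra at E14.5 (horizontal axis) against E18.5 (vertical axis) for the genes tested at both stages, purple where the interaction passed at an adjusted p under 0.05. Points near the dotted diagonal had a like difference at both stages, such as Tfap2a at -5.31 and -5.49, and Slc26a9 at 4.30 and -4.29 lies far below it.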

How the data were processed

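Whole-number counts per gene, deposited by the authors in 1 table for each stage, were used as they stand. Per the submitters' processing notes, reads went through bcl2fastq, HISAT2 2.2.1 and SAMtools 1.9 with the GRCm38 build, and per the labels RNA-seq libraries were made from 60 ng of RNA with 100 bp reads. How reads were counted, on which strand and against which annotation is not given in the sources used here. Exons of 4903 tested genes (29.4%) overlap a gene on the opposite strand, and near copies (Gsta, Gstm, Ly6, Ifitm, keratin genes) may share reads, so their values are uncertain. Mitochondrial genes had 0 counts.

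Counts of the 8 E14.5 libraries were filtered with filterByExpr, scaled with TMM and tested with the quasi-likelihood test of edgeR 4.0.16 (R 4.3.3, limma 3.58.1), two-sided, with Benjamini-Hochberg adjustment over all 16697 genes. Every adjusted p comes from that fit or a named alternative. Fold changes are fitted values with edgeR's prior count of 0.125. The stage interaction was fitted over all 14 libraries. Alternatives were other scalings, filters, DESeq2 1.42.0, limma voom, a replicate block, a mesenchyme covariate and leaving out each library. Replicates were taken as pools of separate litters, each litter gives both tissues, and p-values measure the spread between these pools. If the litters were fewer than the libraries of a tissue, some libraries would share a litter. The p-values could then understate the spread between litters. The labels do not say that a replicate number marks a litter.

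The members and gene lists were chosen with earlier results of these data known. The rule for named genes took the 15 largest non-overlapping changes in each direction at 5 CPM or more, the 10 most abundant of at least 2-fold, genes of 1 CPM or more with at most 3 counts over the 4 libraries of the other tissue, the 5 smallest adjusted p, and up to 4 members of a list by adjusted p with 1 against its majority (all members of lists of 8 or fewer), beside the 3 most abundant of each marker list. A few genes that it takes are not reported here. The fit was tested on simulated data in which a small share of genes was changed, in random directions. The simulation held no difference in mesenchymal RNA, and 44.0% of genes were called in the real data. It therefore cannot show whether the calls here are right. Upstream sequences came from a RefSeq table (GRCm38.p6), which held 15 of the 20 cholesterol genes.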

Additional observations from a re-analysis of the deposited data

Results flagged for a closer look

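In 51 of 470 sets of 4 values behind the genes and marker sums (10.9%), 1 library stood so far from the other 3 of its tissue that the gap passed the critical value of Dixon's test, which chance does in about 1 in 20 sets. Urethra replicate 1 gave 29 of the 51, bladder replicates 1 and 3 gave 8 each and urethra replicate 3 gave 4. Over all tested genes with at least 1 CPM in some library of the tissue, urethra replicate 1 stood apart in 758 of 15782 (4.80%), above the other 3 in 590 of them. Urethra replicates 2, 3 and 4 stood apart in 0.27%, 1.69% and 0.93%. The rate of 1 in 20 is shared by the 4 libraries of a set, so a single library is to be set against less than that. Bladder replicates 1 and 3 did so in 508 and 436 of 15338.

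Urethra replicate 1 was high for 25 genes, some higher in bladder and some in urethra. Among junction, trafficking and surface genes these were Dsc3 (11.3 CPM), Dsg3 (9.96 CPM), Plec (377 CPM), Gjb6 (25.5 CPM), Ocln (114 CPM), Mall (74.5 CPM), Rab11a (201 CPM), Rab27b (183 CPM), Snx31 (184 CPM), Sptssb (52.0 CPM) and Vsig2 (7.08 CPM). Among enzymes and proteases they were Msmo1 (85.2 CPM), Dmgdh (2.43 CPM), Gsta4 (344 CPM), Tmprss2 (167 CPM), Spint1 (346 CPM) and Fabp5 (119 CPM). Squamous and keratin genes were Krt20 (5.73 CPM), Krt78 (17.8 CPM), Ly6d (55.0 CPM) and Sbsn (7.75 CPM), and others were Arhgef38 (16 CPM), Ascl2 (3.52 CPM), Crabp2 (83.2 CPM) and Fzd3 (135 CPM). The same library was low for Hoxb3 (28.4 CPM), Hoxd12 (32.5 CPM) and Hoxd13 (121 CPM) and for the summed hepatocyte markers (0.631 CPM).

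Bladder replicate 1 was high for Col17a1 (15.4 CPM), Hoxd9 (11.9 CPM), Krt5 (573 CPM), Mal (940.5 CPM) and Spry1 (14 CPM) and low for Cldn7 (178 CPM), Ihh (34.6 CPM) and Rab11a (299.8 CPM). Bladder replicate 3 was high for Adamts18 (5.37 CPM), Cldn11 (20.4 CPM), Crabp2 (17.3 CPM) and Evx2 (4.62 CPM) and for the summed erythroid markers (831 CPM), and low for Dsg2 (342 CPM), Fa2h (128 CPM) and Kremen1 (182 CPM). Hoxb2 was high in bladder replicate 2 (28.1 CPM) and Abca1 in bladder replicate 4 (74.1 CPM). Urethra replicate 3 was high for Hoxd9 (18.7 CPM) and low for Ifitm1 (7.96 CPM), Six4 (47.3 CPM) and Tfap2a (52.3 CPM).

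The tissue difference was not the same at E14.5 and E18.5 for 11 of the genes described, by the interaction of tissue and stage in edgeR. The interaction, on the log2 scale and positive where the bladder side was stronger at E14.5, was 8.56 for Slc26a9, 6.11 for Ihh, 3.28 for Tmprss4, 2.95 for Car2 and 1.54 for Id1. It was -3.14 for Ptch1, -4.32 for Lrig1, -5.63 for Krt14, -1.14 for Cdh3, -6.11 for Sstr2 and -8.26 for Wnt10b.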

How the results depend on the processing

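The 3860 bladder and 3491 urethral calls were 3804 and 3548 with DESeq2 size factors, 4183 and 4115 with DESeq2 and 4013 and 3804 with limma voom. They fell to 2137 and 1887 with the mesenchyme score as a covariate, where 3970 of the 7351 calls remained, to 1112 and 1980 when a log2 fold change of at least 1 was also required. They were 569 and 11153 under the scaling on 7 pan-epithelial genes, which were chosen after seeing the data and of which 5 were higher in bladder. Leaving out 1 library gave 2730 to 4391 bladder and 2655 to 4003 urethral calls, and 2654 to 5697 interaction calls against 4183. Of the 234 genes named, 223 were called, and 160 stayed so in each alternative other than the 2-fold rule and the pan-epithelial scaling. Aldh1a3, Lypd3 and Mall did not pass by limma voom (adjusted p = 0.0611, 0.0889 and 0.0902). A change of sign was counted only where the main fit or the alternative called the gene. Counted so, the direction turned in 0 genes under other alternatives and in 33 under the pan-epithelial scaling, where the median of all genes was -0.96. There the log2 fold changes were Acat2 -0.47, Acvr2a -0.57, Atp5b -0.39, Ccnb2 -0.18, Cldn12 -0.67, Cldn7 -0.11, Epha2 -0.42, Erbb3 -0.23, Fabp5 -0.034, Fasn -0.77, Fras1 -0.34, Gata3 -0.86, Hoxa7 -0.13, Hoxb2 -0.46, Hoxd8 -0.54, Hsd17b12 -0.50, Hsd17b4 -0.70, Hsd17b7 -0.083, Itga6 -0.79, Mki67 -0.71, Ndufv1 -0.37, Pkp4 -0.54, Plec -0.27, Plxnb2 -0.047, Rab8a -0.42, Rdh11 -0.44, Rplp1 -0.64, Sdhd -0.22, Sema4g -0.16, Srd5a3 -0.53, Srebf2 -0.14, St14 -0.085 and Uqcrq -0.22. The cause was not tested. Same-numbered libraries of the 2 tissues had deviations that correlated at 0.16, 0.13, 0.44 and -0.12, and not every library correlated best with its own number. With 4 libraries a tissue, these correlations cannot decide whether the same numbers are pairs. The numbers in the library names alternate between bladder and urethra, but the labels do not tie a number to a litter, so the main fit took no pairs. A replicate block gave 3993 and 3687 calls, with 6799 of the 7351 kept. At 22.0 to 36.8 M counts, depth limits genes read a few times, such as Mnx1 and Wnt10b in bladder.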
